A study of Mus musculus with 5 samples.

Results

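The genes described here separated liver RNA of the mouse strains BALB/CByJ and FVB/NJ from liver RNA of C57BL/6J, NZW/LacJ and RIIIS/J. A gene was a member when its lowest value in one of these groups was above its highest value in the other, on the log2 scale and with 1 probe set per gene, the one with the highest mean over the 5 arrays. By this rule 8549 of 18194 genes were members, 1250 of them higher on the BALB/CByJ and FVB/NJ arrays (6.87% of all genes) and 7299 lower (40.1%). The members were thus selected on the measured log2 intensities themselves, so their values are a description and no difference between the groups was tested.

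The series compared liver expression across inbred strains. Each strain had 1 array, an Affymetrix Mouse430_2 oligonucleotide chip, and each array read RNA pooled from the livers of 3 males aged 10 weeks. The mice of all 5 strains were untreated, and the labels name no engineered allele. A pool gives no spread between animals and there was no replicate check, so a difference between strains cannot be told apart from a difference between pools or arrays. In bulk tissue, fewer cells of a type and less RNA per cell cannot be told apart either.

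Most of the lower members were not detected. A detection floor was set at an intensity of 8.41 (3.07 on the log2 scale), below which lie 95% of the values of the 86 chemoreceptor probe sets (olfactory, vomeronasal and taste). Of the 7299 lower members, 5332 lay under the floor on every array, as did 5 of the 1250 higher ones. Among all 6285 undetected genes the median intensity was 5.38 in BALB/CByJ and 5.27 in FVB/NJ, against 5.61 in C57BL/6J, 5.60 in NZW/LacJ and 5.52 in RIIIS/J. The arrays of the pair thus had the lowest background. With values under the floor raised to it, 11909 genes counted as detected, that is above the floor on 1 or more arrays, and of these 1232 were higher without overlap (10.3%) and 1672 were lower (14.0%). The split depends on how the arrays are scaled. It was 8.46% higher and 20.1% lower after quantile normalisation, 11.7% and 16.2% after loess correction, and 4.05% and 33.6% after centring each array on its median. Before centring the array medians stood at 0.14 for FVB/NJ, 0.10 for BALB/CByJ, -0.02 for C57BL/6J, -0.09 for NZW/LacJ and -0.13 for RIIIS/J on the log2 scale, relative to the mean of the 5 medians. Centring took these offsets away, so it lowered the arrays of the pair against the others, and the median difference over all detected genes went from 0.02 to -0.14.

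The gap of a gene is the distance between the nearest arrays of the groups. A gap of at least 2-fold was found for 24 higher genes (0.202% of detected genes) and 14 lower genes (0.118%), and the text turns mainly on these 38. A gap of at least 0.5 on the log2 scale was found for 112 higher and 64 lower genes, and a gap of at least 4-fold for 2 and 5. With C57BL/6J left out, 115 genes were higher and 70 lower by 2-fold. The counts were 37 and 25 without NZW/LacJ, 35 and 21 without RIIIS/J, 752 and 91 without BALB/CByJ and 133 and 78 without FVB/NJ. Leaving out an array can only widen a gap, so each of the 38 stays among the genes counted then.

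Inbred strains differ at many loci, and a liver transcript can differ between strains through a variant at its own gene, through a regulator, or through the state of the animal. The liver also runs a daily clock, in which the activators Clock and Arntl drive the Per genes and the output factor genes Dbp and Tef, and these in turn time genes of bile acid, heme and drug metabolism. Cytochromes P450, conjugating enzymes and transporters of the hepatocyte are known for large differences between mouse strains.

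Hepatocyte genes were detected throughout. All 10 hepatocyte markers on the array were detected on every array, with summed intensities of 317389 to 390793. FVB/NJ carried more signal of blood cells. Its summed B cell markers read 19028 against 134 to 266 on the other arrays, with 11 of 11 detected against 3 or 4. T and NK cell markers read 543 against 81.8 to 84.3, neutrophil markers 601 against 25.2 to 63.2 and erythroid markers 6347 against 1309 to 3798. RIIIS/J carried exocrine pancreas signal, 71665 against 735 to 1315, with 9 of 9 markers detected there. As a sign of RNA quality, the 3′ over 5′ signal was 0.901 to 1.01 for Gapdh. For Actb it was 4.98 in FVB/NJ, 2.76 in RIIIS/J and 3.73 to 3.93 in the others. None of the 11 detected B cell markers was a member with the floor in place, since BALB/CByJ did not share the signal.

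**Figure D1:**
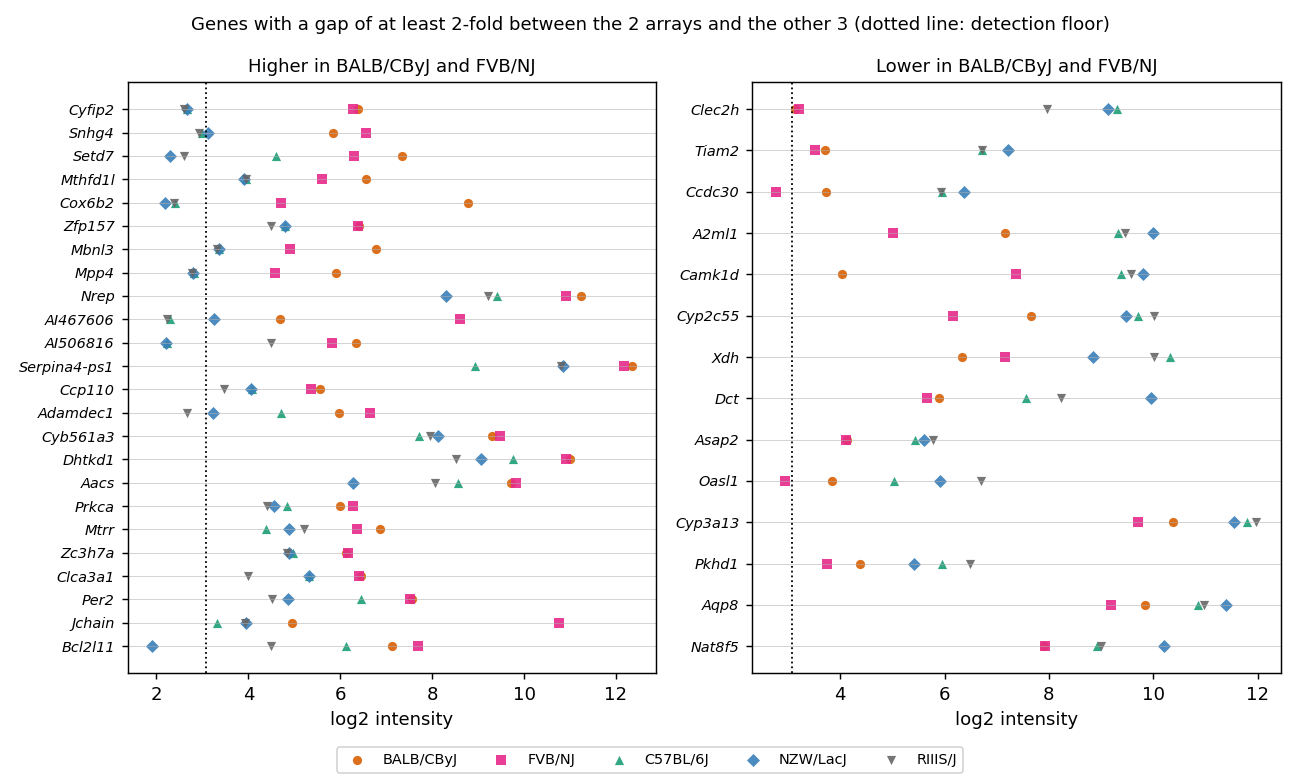
Log2 intensity on each of the 5 arrays (1 array per strain, symbols by strain) for the 24 genes at least 2-fold higher (left) and the 14 at least 2-fold lower (right) in BALB/CByJ and FVB/NJ, ordered by gap from top to bottom, with the detection floor of 3.07 dotted. Cyfip2 and Clec2h have the widest gaps; the BALB/CByJ and FVB/NJ symbols of Cox6b2, AI467606, Jchain and Camk1d lie far apart from each other.

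Intensities below are given in the order BALB/CByJ, FVB/NJ, then C57BL/6J, NZW/LacJ and RIIIS/J. Cyfip2, which encodes a subunit of the WAVE complex that regulates actin, read 83.5 and 78.0, against 6.36, 6.31 and 6.10. All 3 of the latter lay under the floor, so the gap was at least 9.27-fold. A second Cyfip2 probe set read 13.2 and 13.2, against 5.77, 5.76 and 5.77, and separated the same arrays. Snhg4, a noncoding host gene of small nucleolar RNAs, read 57.7 and 94.5, against 7.93, 8.69 and 7.60. Its gap was 6.65-fold (2.73 on the log2 scale), and only NZW/LacJ among the 3 was above the floor. Cyfip2 and Snhg4 were the 2 higher genes with a gap past 4-fold.

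Cox6b2 and Mpp4 were also under the floor in all 3 other strains. Cox6b2, the testis isoform of a cytochrome c oxidase subunit, read 438 and 26.1, against 5.32, 4.53 and 5.19, a gap of at least 3.11-fold. Mpp4, a scaffold protein gene known from the retina, read 60.1 and 24.1, against 7.00, 6.96 and 6.85, a gap of at least 2.86-fold. BALB/CByJ was the higher of the pair for both, by 16.8-fold for Cox6b2 and 2.50-fold for Mpp4. The smaller gaps of this kind were at least 1.94-fold for Caln1, 1.66-fold for Gpr135 and 1.60-fold for Pus7l.

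Metabolic enzyme genes among the 24 were Dhtkd1, Aacs, Mthfd1l and Mtrr. Dhtkd1, which encodes the dehydrogenase for 2-oxoadipate in lysine and tryptophan breakdown, read 2043 and 1933, against 861, 534 and 369, a gap of 2.25-fold. Aacs, the cytosolic acetoacetyl-CoA synthetase gene that returns ketone bodies to lipid synthesis, read 845 and 902, against 379.6, 77.9 and 269, a gap of 2.23-fold. For both genes the pair differed by under 1.1-fold (1.06-fold for Dhtkd1 and 1.07-fold for Aacs), while the other 3 strains spread over 2.34-fold and 4.88-fold. A second Aacs probe set read 686 and 868, against 348, 86.1 and 331, again without overlap.

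Mthfd1l, the mitochondrial formyltetrahydrofolate synthetase gene, read 94.5 and 48.4, against 15.4, 15.01 and 15.4, a gap of 3.15-fold. Mtrr, which encodes the reductase that reactivates methionine synthase, read 117 and 82.7, against 20.9, 29.7 and 37.2, a gap of 2.22-fold. Both genes were higher in BALB/CByJ than in FVB/NJ, and neither overlapped. In a list of folate and one-carbon genes, written after these values were seen, 20 genes were detected. Of the list 2 were higher (Mthfd1l and Mtrr) and 3 lower, beside 10.3% and 14.0% of all detected genes. The median difference of the list was -0.04 log2. After centring 2 were higher and 9 lower, beside 4.05% and 33.6% of all detected genes. Among the lower genes of the list Shmt2, the mitochondrial serine hydroxymethyltransferase gene, read 1947 and 1952, against 3461, 3178 and 2677. Folr2, a folate receptor gene, read 30.2 and 31.9, against 70.1, 46.7 and 51.5. The gaps of these genes were 1.37-fold and 1.46-fold.

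Nrep and Serpina4-ps1 were the brightest of the 24 on the arrays of the pair, and both had a further probe set with a gap past 2-fold. Nrep, first described in regenerating neurons, read 2431 and 1940.1, against 685, 315 and 598, a gap of 2.83-fold. Its second probe set read 1889 and 1412, against 523, 232 and 508, a gap of 2.70-fold. Serpina4-ps1, annotated as a serpin pseudogene, read 5197 and 4590.3, against 491, 1838 and 1780.1, a gap of 2.50-fold. C57BL/6J was the lowest of the 5 here, 3.75-fold below NZW/LacJ. Further probe sets of Serpina4-ps1 had gaps of 2.26-fold and 1.60-fold, and the second carries the suffix that marks probes shared with similar transcripts. In the serpin list 2 of 21 detected genes were higher and 3 lower (2 and 7 after centring), with a median difference of -0.14 log2. The shares were 9.52% and 14.3%, beside 10.3% and 14.0% of all detected genes. After centring they were 9.52% and 33.3%, beside 4.05% and 33.6%.

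The next 6 genes, with unrelated roles, were Setd7, Zfp157, Mbnl3, Ccp110, Prkca and Zc3h7a. Setd7, a lysine methyltransferase gene, read 162 and 78.4, against 24.2, 4.91 and 6.10, a gap of 3.24-fold, with NZW/LacJ and RIIIS/J under the floor. Zfp157, a zinc finger protein gene, read 85.2 and 84.1, against 27.9, 27.9 and 22.4, a gap of 3.02-fold. Mbnl3, which encodes an RNA-binding protein of the muscleblind family, read 109 and 30.2, against 10.4, 10.4 and 9.99, a gap of 2.91-fold. The pair agreed within 1.01-fold for Zfp157 and differed by 3.62-fold for Mbnl3. Further probe sets of Zfp157 and Mbnl3 separated the same way with gaps of 1.42-fold and 1.34-fold, and another Mbnl3 set overlapped. Ccp110, a centriole protein gene, read 47.0 and 41.0, against 16.9, 16.8 and 11.2. Prkca, the protein kinase C alpha gene, read 63.6 and 77.5, against 28.6, 23.6 and 21.2. Zc3h7a, a CCCH zinc finger gene, read 69.5 and 71.8, against 31.3, 29.5 and 28.8. These 3 genes had gaps of 2.43, 2.22 and 2.22-fold, with the pair within 1.22-fold of each other.

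Membrane and secreted proteins included Cyb561a3, Clca3a1 and Adamdec1. Cyb561a3, which encodes a ferric reductase of lysosomes, read 634 and 708, against 212, 278 and 247, a gap of 2.28-fold. Clca3a1, of the family of chloride channel regulators, read 87.5 and 85.4, against 39.7, 39.7 and 15.97, a gap of 2.15-fold. Adamdec1, a secreted metalloprotease gene of macrophages and dendritic cells, read 63.0 and 99.9, against 26.3, 9.40 and 6.33, a gap of 2.40-fold. No detected marker of the macrophage list separated in the same way (0 of 15, beside 10.3% of all detected genes). The median difference of that list was 0.35 log2, with the mean of the pair above in 9 genes and below in 6. The part of macrophages in the Adamdec1 values was not tested. The summed macrophage markers read 5067 in BALB/CByJ and 9218 in FVB/NJ, against 4816 to 7604 elsewhere. A second Cyb561a3 probe set had a gap of 1.98-fold and a dim further one overlapped, as did a dim second set of Clca3a1.

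The last members inside the 2-fold limit were Per2 (2.08-fold, described with the clock), Jchain (2.01-fold) and Bcl2l11 (2.002-fold). Just outside were Rcc2 (1.99-fold), A930033H14Rik (1.97-fold) and Caln1 (at least 1.94-fold). Jchain, which encodes the chain that joins polymeric immunoglobulins, read 30.8 and 1747, against 10.0, 15.3 and 15.1. FVB/NJ was 56.8-fold above BALB/CByJ, so BALB/CByJ stood far closer to the 3 remaining strains than to FVB/NJ. AI467606, a gene known by its sequence tag, read 25.6 and 388, against 4.91, 9.60 and 4.66, a gap of 2.67-fold, and its second probe set was above the floor in FVB/NJ alone. The immunoglobulin segment gene Igkv8-30 read 56.0 and 4063, against 32.4, 32.4 and 31.6. In FVB/NJ these 3 genes stood high together with the B cell markers given above, and the part of those cells in their values was not tested. In BALB/CByJ the B cell markers summed to 255, within the range of the 3 other strains. Bcl2l11, the gene of the cell death inducer Bim, read 140.3 and 208, against 70.1, 3.72 and 22.6. AI506816, a transcript of unassigned function, read 80.6 and 56.7, against 4.70, 4.64 and 22.6, a gap of 2.51-fold. For Bcl2l11 the nearest other strain was C57BL/6J and for AI506816 it was RIIIS/J.

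Across the 24 higher genes the pair lay within 1.5-fold of each other for 15. The gap was wider than the spread inside either group for 12. C57BL/6J was counted as the nearest of the other strains for 16, NZW/LacJ for 5 and RIIIS/J for 3, with ties given to 1 strain. The 16 include Cyfip2, Cox6b2 and Mpp4, for which all 3 other strains lay under the floor. They also include Zfp157, Mbnl3 and Clca3a1, for which C57BL/6J and NZW/LacJ read level as printed above. For the 1232 higher genes with any gap ties were set apart. There C57BL/6J was nearest for 672, NZW/LacJ for 210 and RIIIS/J for 190, with 160 tied. Of the 24 genes, 12 had further detected probe sets. Of these 17 sets, 11 separated in the same direction, 6 overlapped and 0 separated the other way, and a further set reached 2-fold for 2 genes.

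Between 0.5 and 1 on the log2 scale, the higher genes outside the lists included receptors, transporters and signalling genes, named here after their values were seen. Itga9, an integrin subunit gene, read 66.1 and 69.1, against 20.2, 16.4 and 35.1, a gap of 1.88-fold. Slc15a4, which encodes a lysosomal histidine and peptide transporter, read 935 and 475, against 258, 182 and 235, a gap of 1.84-fold. Itpr2, the main inositol trisphosphate receptor gene of hepatocytes, read 714 and 668, against 324, 379 and 173, a gap of 1.77-fold. The pair was nearly level for Itga9 and Itpr2, while Slc15a4 was higher in BALB/CByJ. Ifngr1, a chain of the interferon gamma receptor, read 134 and 179, against 73.7, 78.9 and 72.0, a gap of 1.69-fold. Atp1b1, a sodium pump subunit gene, read 1607 and 1309.5, against 826, 513 and 770.4, a gap of 1.59-fold. Ccndbp1, which encodes a protein that binds D cyclins, read 557 and 549, against 319, 323 and 287, a gap of 1.70-fold. Both groups were tight for Ccndbp1, with spreads of 1.02-fold in the pair and 1.13-fold among the other 3 arrays. Sox4, a transcription factor gene, read 136 and 123, against 68.7, 33.4 and 60.1, a gap of 1.79-fold.

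Clec2h had the widest gap of all members. It encodes a C-type lectin of the natural killer gene region and read 8.83 and 9.24, against 636, 558 and 250.01. Both values of the pair lay close to the floor, and the gap was 27.1-fold (-4.76 on the log2 scale). Further probe sets of Clec2h read 5.29 and 9.26, against 451, 367 and 217, and 21.4 and 14.1, against 308, 228 and 179. All 3 sets thus placed BALB/CByJ and FVB/NJ far below, with gaps of 27.1, 23.5 and 8.37-fold.

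A2ml1 lies beside Clec2h and went the same way. It encodes a protease inhibitor of the alpha-2-macroglobulin family and read 143 and 32.3, against 642, 1017 and 706, a gap of 4.49-fold. In the gene order of RefSeq only Klrb1a, among detected genes, lies between them, at 7.85 and 7.91, against 8.75, 8.74 and 8.60. Pzp, the next detected gene on the A2ml1 side and an abundant protease inhibitor of the same family, read 42595 and 43993, against 42160, 39300.4 and 40791. Pzp therefore lay within a narrow range in all 5 strains.

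Camk1d, which encodes a calcium and calmodulin dependent kinase, read 16.4 and 166, against 671, 895 and 767, a gap of 4.05-fold. BALB/CByJ was 10.1-fold below FVB/NJ. Further Camk1d probe sets read 20.3 and 94.0, against 420, 403 and 664, and 33.0 and 261, against 300, 428 and 471. Both kept the order, with gaps of 4.28-fold and 1.15-fold. Camk1d lies near Dhtkd1, with 3 detected genes between them (Cdc123, Nudt5 and Sec61a2), and the neighbours went opposite ways. None of the genes between had a gap past 1.01-fold.

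**Figure D2:**
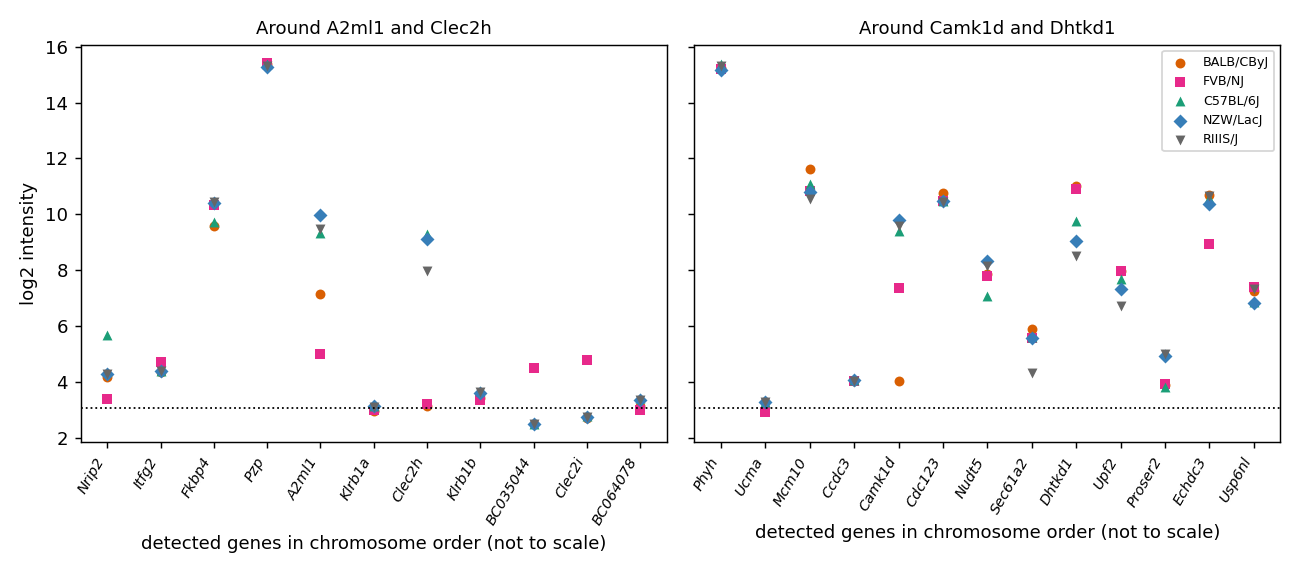
Log2 intensity on each array for the detected genes around A2ml1 and Clec2h (left) and around Camk1d and Dhtkd1 (right), in chromosome order and not to scale, with the floor of 3.07 dotted. BALB/CByJ and FVB/NJ are lower for A2ml1 and Clec2h while Pzp beside them is level, and they are lower for Camk1d and higher for Dhtkd1.

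No 2 of the 38 genes were adjacent among the 11887 detected genes that could be placed. Among 175 placed genes with a gap of at least 0.5 log2 there were 6 adjacent pairs, 3 with both genes higher, 2 with both lower and 1 with opposite directions. The higher pairs were Prpf38b with Fam102b, Rpia with Eif2ak3, and Kmt5c with Cox6b2. The lower pairs were Dio1 with Yipf1 and Ugt2b38 with Sult1b1, and the opposite pair was Mettl23 with Srsf2. Dio1, the gene of the deiodinase that activates thyroid hormone, read 55.3 and 2533, against 3625, 4960.0 and 4082. BALB/CByJ set this gene apart, while FVB/NJ was close to the others with a gap of 1.43-fold.

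Tiam2 and Ccdc30 were lower on dim signals. Tiam2, a gene of an exchange factor for the GTPase Rac, read 13.1 and 11.4, against 105, 148 and 105, a gap of 7.98-fold. Another detected probe set of Tiam2 read 20.5 and 18.2, against 18.9 in each other strain, and overlapped. Ccdc30, which encodes a coiled-coil protein, read 13.3 and 6.85, against 62.3, 83.0 and 61.0, a gap of 4.58-fold. Further detected sets of Ccdc30 overlapped (2) or separated by 1.18-fold (1), so only the brightest set of Tiam2 and of Ccdc30 showed a wide gap. Asap2, an Arf GTPase activating protein gene, read 17.5 and 17.3, against 43.3, 49.0 and 55.2. Pkhd1, the gene of fibrocystin in the bile duct and kidney, read 20.9 and 13.4, against 62.3, 42.9 and 89.5. Their gaps were 2.47-fold and 2.05-fold. Among the cholangiocyte markers only 4 were detected, with sums of 50.4 to 74.9 over the 5 arrays. Of these 2 were lower and 0 higher, beside 14.0% and 10.3% of all detected genes. The count depends on the scaling, with 1 lower after quantile normalisation, 1 higher and 1 lower after loess correction and 4 lower after centring. After centring 33.6% of all detected genes were lower.

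Enzymes and transporters of the hepatocyte were also among the 14 lower genes, of which Cyp3a13 and Aqp8 read highest on every array. Cyp2c55, a cytochrome P450 gene, read 203 and 71.6, against 835, 714 and 1037, a gap of 3.52-fold. Cyp3a13, another cytochrome P450 gene, read 1325 and 839, against 3567, 3001 and 4035, a gap of 2.26-fold. FVB/NJ was the lower of the pair for both. Xdh, the xanthine dehydrogenase gene of purine breakdown, read 81.1 and 142, against 1275, 460.5 and 1035, a gap of 3.24-fold. Aqp8, which encodes a water channel, read 915 and 584, against 1850.3, 2682 and 1998, a gap of 2.02-fold. Nat8f5, of a family of N-acetyltransferases, read 241 and 242, against 487, 1185 and 511, a gap of 2.01-fold. The pair differed by 1.01-fold for Nat8f5 and by 1.75-fold for Xdh.

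Dct and Oasl1 complete the 14 lower genes. Dct, known for melanin synthesis as dopachrome tautomerase, read 59.2 and 51.0, against 189, 992 and 301, a gap of 3.19-fold. NZW/LacJ stood 5.26-fold above C57BL/6J for this gene. Oasl1, an antiviral gene related to the oligoadenylate synthetases, read 14.3 and 7.64, against 32.9, 60.2 and 103, a gap of 2.30-fold. FVB/NJ was under the floor for Oasl1. Just outside the 2-fold limit were Car14 and Ugt2b38 (1.94-fold each) and Akr1c19 (1.91-fold), and just inside were Pkhd1, Aqp8 and Nat8f5. Lower genes under the floor in both arrays of the pair were dim, with gaps of at least 1.60-fold for Wfdc2 and 1.32-fold for Obp2a.

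Among the 14 lower genes the pair lay within 1.5-fold of each other for 5, and the gap was wider than the spread inside either group for 9. C57BL/6J was counted as nearest for 8, NZW/LacJ for 4 and RIIIS/J for 2. The 8 include Tiam2, for which C57BL/6J and RIIIS/J read level as printed above. Over the 1672 lower genes with any gap the nearest strain was RIIIS/J for 690, C57BL/6J for 395 and NZW/LacJ for 293, with 294 tied. Of the 14 genes, 4 had 8 further detected probe sets, of which 5 separated in the same direction, 3 overlapped and 0 separated the other way.

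Genes of the daily clock were followed as a group because Per2 was among the 24. The Per genes encode repressors whose messages peak towards dusk in mouse liver. Of 15 detected genes of the dusk list 6 were higher without overlap (40.0%) and 0 lower, beside 10.3% and 14.0% of all detected genes. The median difference between the group means was 1.02 log2, against 0.02 over all detected genes. Of 7 detected genes of the dawn list 0 were higher and 1 was lower, with a median of -0.98. The dusk list had 4 higher and 0 lower genes after centring, beside 4.05% and 33.6% of all detected genes. With C57BL/6J left out the counts were 11 higher in the dusk list and 1 higher and 4 lower in the dawn list, while the shares over all detected genes were then 19.9% higher and 21.0% lower. The dusk list had 6 higher genes without NZW/LacJ, 7 without RIIIS/J, 8 without BALB/CByJ and 10 without FVB/NJ. It had 1 lower gene without FVB/NJ and 0 in the other cases. Over all detected genes the higher share was 13.6%, 13.3%, 28.0% and 27.4% with the same arrays left out. The time of day at which the livers were taken is stated in no source used here, and its part in these values was not tested.

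Per2 read 188 and 183, against 87.7, 29.0 and 22.7, a gap of 2.08-fold. Per3 read 197 and 277, against 104, 50.6 and 25.5, a gap of 1.89-fold. Per1 read 46.7 and 42.0, against 29.4, 19.0 and 18.7, a gap of 1.43-fold. All 3 Per genes were highest in BALB/CByJ and FVB/NJ, C57BL/6J followed, and RIIIS/J was lowest. The further probe sets of Per2 were dim and overlapped. With the probe sets of a gene averaged the gap was 0.33 log2 for Per2 and 0.32 log2 for Per3. Noct, the gene of the rhythmic phosphatase nocturnin, read 1077 and 479, against 255, 24.5 and 277, a gap of 1.73-fold. Tef, a PAR bZIP output factor gene, read 1530.3 and 1387, against 1293, 301 and 133. Bhlhe40, a repressor gene of the clock, read 1168 and 989.8, against 984, 558 and 639. The gaps of Tef and Bhlhe40 were 1.07-fold and 1.01-fold, since C57BL/6J lay almost level with the pair.

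In other clock genes C57BL/6J lay among the pair and the groups overlapped. Dbp, another PAR bZIP factor gene, read 8951 and 4939.5, against 6439, 1023 and 75.5. Usp2, a rhythmic deubiquitinase gene, read 718 and 929.8, against 914, 55.3 and 23.4. Arntl, the activator gene that is low when the Per genes are high, read 14.1 and 14.1, against 13.7, 68.1 and 156. For these 3 genes NZW/LacJ and RIIIS/J stood apart from the other 3 arrays. Clock, the partner of Arntl, read 229.6 and 214, against 286, 723 and 756, and was the 1 dawn gene without overlap, with a gap of 1.25-fold. Nfil3, a repressor gene acting opposite to Dbp, read 274 and 229, against 222, 644 and 840.3, and overlapped through C57BL/6J.

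**Figure D3:**
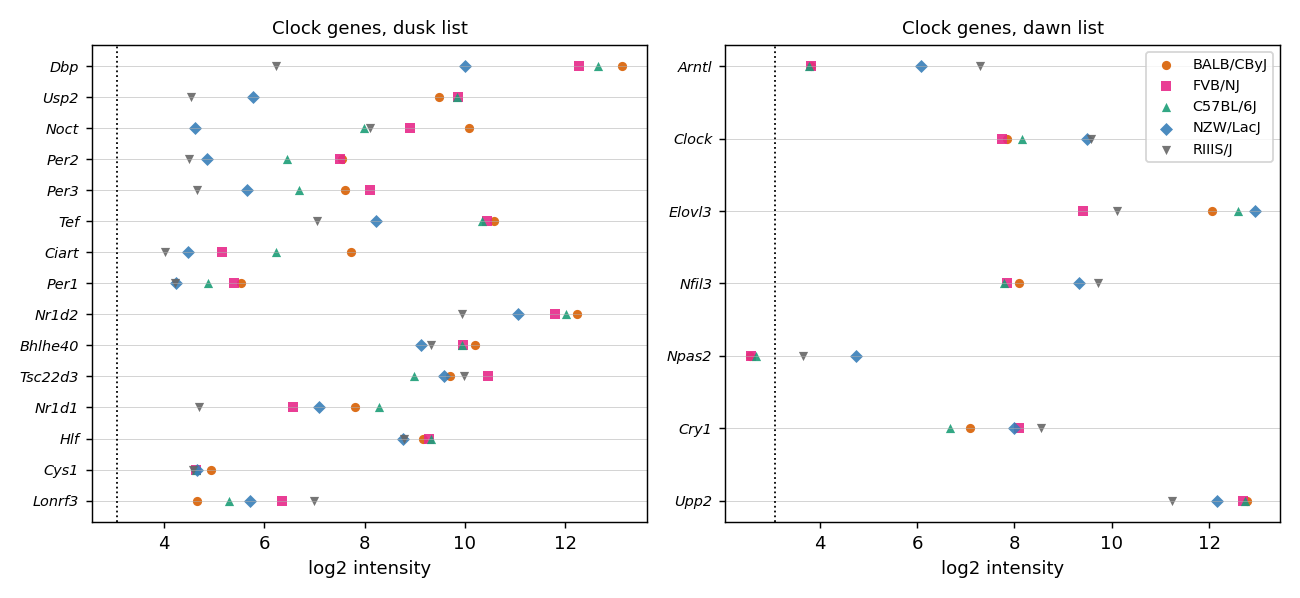
Log2 intensity on each array for the 15 detected genes of the dusk list (left) and the 7 of the dawn list (right), ordered by the difference between the group means, with the floor of 3.07 dotted. In the upper rows of the dusk list NZW/LacJ and RIIIS/J are lowest and C57BL/6J lies near or just below BALB/CByJ and FVB/NJ; Arntl and Clock show the reverse order.

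The promoters of Per1 and Per3 are shown because these genes separated the same arrays as Per2 and both carry clock motifs close to the start site. They are given 5′ to 3′ on the strand of the gene, from RefSeq on build GRCm38.p6, as the 250 bases before the start site, at chr11:69098699-69098948 (plus strand) for Per1 and chr4:151044666-151044915 (minus strand) for Per3. Capitals mark the E-box CACGTG, the motif bound by Clock and Arntl, and the D-box TTATGTAA or its relaxed form TTATGNAA, the motif of the PAR bZIP factors.
Per1: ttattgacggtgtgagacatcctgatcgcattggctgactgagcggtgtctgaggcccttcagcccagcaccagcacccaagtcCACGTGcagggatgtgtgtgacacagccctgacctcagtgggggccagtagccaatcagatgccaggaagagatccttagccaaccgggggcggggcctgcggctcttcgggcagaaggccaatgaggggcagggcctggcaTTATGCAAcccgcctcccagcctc
Per3: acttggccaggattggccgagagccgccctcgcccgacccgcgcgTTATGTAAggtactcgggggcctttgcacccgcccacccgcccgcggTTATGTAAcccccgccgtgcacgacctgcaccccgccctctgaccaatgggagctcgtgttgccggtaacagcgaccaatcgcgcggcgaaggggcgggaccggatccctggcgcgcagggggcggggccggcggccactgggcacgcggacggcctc

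In Per1 the E-box starts 166 bases and the TTATGCAA match 24 bases before the start site. In Per3 the TTATGTAA matches start 205 and 158 bases before it. Searched on both strands in 32851 RefSeq windows of 300 bases, CACGTG occurred in 7.15%, TTATGTAA in 0.938% and TTATGNAA, which includes TTATGTAA, in 3.38%. Of 13 dusk list genes with an entry, 4 held CACGTG, 1 held TTATGTAA and 3 held TTATGNAA in at least 1 window. Of 6 dawn list genes with an entry, 1 held CACGTG and 0 held the other motifs. A gene can have several windows, and a match describes letters and not a bound site. CACGTG did not follow the gaps, as Ciart and Lonrf3 held it and overlapped, while Per3 and Noct lacked it and did not overlap. TTATGNAA lay in Per1, Per3 and Noct, which were all higher without overlap, but not in Tef, which was higher too. Dbp overlapped and held none of these motifs in its window. A link between matches and gaps was not tested.

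Rhythmic genes downstream of the clock were compared through a list written after the values were seen. Of 19 detected genes 6 were higher (31.6%) and 4 lower (21.1%), beside 10.3% and 14.0% of all detected genes, with a median difference of 0.51 log2. After centring 5 were higher (26.3%) and 4 lower (21.1%), beside 4.05% and 33.6%, with a median of 0.31 log2. Nampt, the rate-limiting gene of NAD salvage, read 618 and 620.4, against 331, 235 and 195, a gap of 1.87-fold. Nr1i3, the gene of the xenobiotic receptor CAR, read 1596 and 1539, against 969, 858 and 775, a gap of 1.59-fold. The pair was nearly level in both, and C57BL/6J was the nearest other strain. Alas1, the rate-limiting gene of heme synthesis, read 12738 and 8409, against 6217, 972 and 1704, a gap of 1.35-fold. Cyp7a1, the rate-limiting gene of bile acid synthesis, read 6805 and 6814, against 5113, 2217 and 1749.8, a gap of 1.33-fold. C57BL/6J was again nearest, and the pair was level for Cyp7a1. Wee1, a cell cycle kinase gene under clock control, read 161 and 179, against 115, 25.6 and 24.2. Among the lower genes Tubb2a, a tubulin gene, read 988 and 864, against 1343, 3220.1 and 6416. Wee1 and Tubb2a had gaps of 1.40-fold and 1.36-fold and opposite orders over the 5 arrays.

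Splicing proteins were the list with the highest share of higher genes among those with 15 or more detected genes. The list held SR proteins, which recruit the spliceosome to exons, hnRNPs, which coat nascent RNA, and related factors. It was written after members of it had been seen, so its count is a description. Of 42 detected genes 24 were higher (57.1%) and 0 lower, beside 10.3% and 14.0% of all detected genes, with a median difference of 0.57 log2. The counts were 24 and 2 after quantile normalisation, 25 and 1 after loess correction and 18 and 2 after centring. After centring 4.05% of all detected genes were higher. With each array left out in turn the higher genes of the list numbered 25 to 34 and the lower 0 to 3, while the share of higher genes over all detected genes was 13.3% to 28.0%. No gap reached 2-fold. Summed over the list the arrays read 82469 and 100027, against 72033, 71746 and 66086.

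Dhx9, an RNA helicase gene, read 1844 and 1578, against 1011, 722 and 502, a gap of 1.56-fold. Snrnp40, a U5 particle protein gene, read 209.5 and 232, against 135, 135 and 52.7, a gap of 1.55-fold. Sfpq, which encodes a splicing factor of paraspeckles, read 1167 and 1086, against 734, 648 and 419.9, a gap of 1.48-fold. In these genes RIIIS/J was lowest and the pair lay within 1.2-fold of each other (1.17-fold for Dhx9, 1.11-fold for Snrnp40). Srsf2, a core SR protein gene, read 2056 and 1782, against 1252, 1177 and 1203. Ddx5, a helicase gene, read 9657 and 9841, against 6819.7, 4462 and 3721. Hnrnpdl, an hnRNP gene, read 2672 and 3829.9, against 1932, 1126 and 1109. The gaps were 1.42-fold for Srsf2 and Ddx5 and 1.38-fold for Hnrnpdl. C57BL/6J stood above NZW/LacJ and RIIIS/J for Dhx9, Sfpq, Ddx5 and Hnrnpdl, as in the Per genes, and narrowly for Srsf2. For Snrnp40 C57BL/6J and NZW/LacJ read level as printed.

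**Figure D4:**
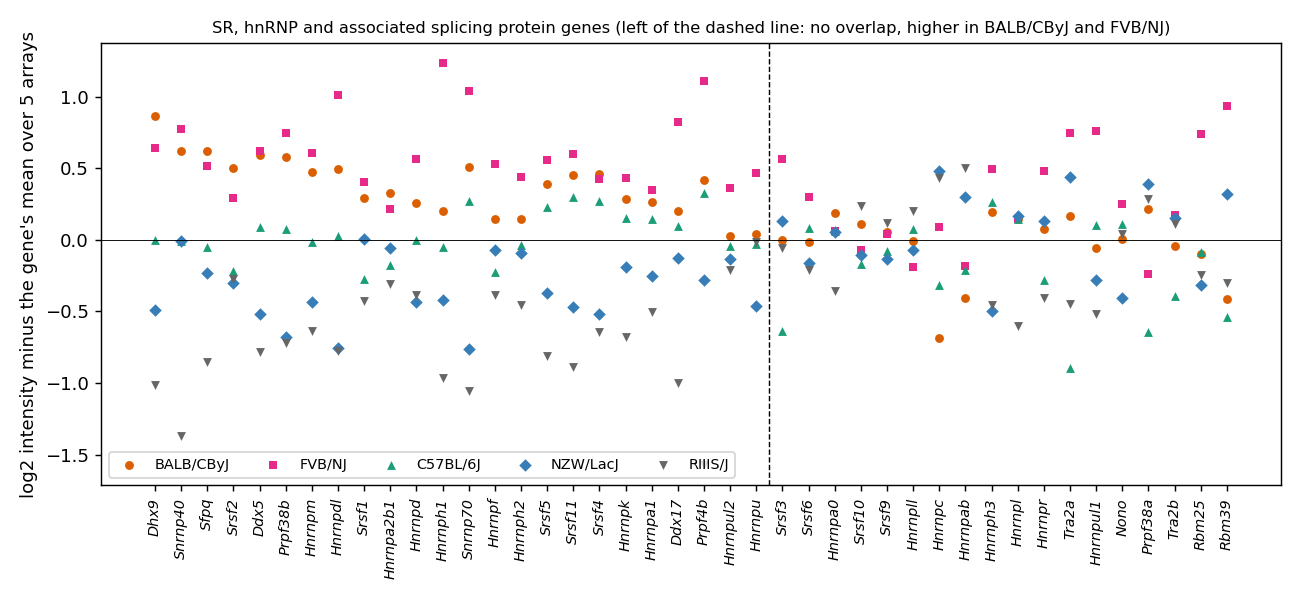
Log2 intensity minus the mean of the gene over the 5 arrays for the 42 detected genes of the splicing list, ordered by gap, with 1 symbol per array. Left of the dashed line lie the 24 genes in which both BALB/CByJ and FVB/NJ are above the other 3 arrays; RIIIS/J or NZW/LacJ is lowest in most of them.

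Nucleolar genes went both ways once the arrays were rescaled. Of 78 detected genes of a list also written after values were seen, 18 were higher (23.1%) and 1 lower (1.28%), with a median of 0.18 log2. Over all detected genes 10.3% were higher and 14.0% lower. After centring the list had 8 higher (10.3%) and 13 lower (16.7%), beside 4.05% and 33.6% of all detected genes. Its median was then -0.02, against -0.14 over all detected genes, so the counts and the sign of the median depend on the scaling. The widest gaps were those of Nolc1 and Taf1d. Nolc1, the gene of a nucleolar chaperone, read 216 and 141, against 65.8, 74.7 and 69.8, a gap of 1.89-fold. Taf1d, a subunit gene of the RNA polymerase I initiation factor, read 199 and 196, against 118, 31.4 and 45.9, a gap of 1.67-fold. Ncl, the nucleolin gene, read 3106 and 3384, against 2106, 854 and 1273, a gap of 1.48-fold. Among the ribosomal protein genes 3 of 37 were higher (8.11%) and 0 lower. After quantile normalisation 10 were higher (27.0%) and 2 lower (5.41%), beside 8.46% and 20.1% over all. After centring 2 were higher (5.41%) and 7 lower (18.9%).

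Of 30 detected drug-metabolising P450 genes 2 were higher and 6 lower, with a median difference of -0.10 log2, beside 10.3% and 14.0% of all detected genes. After centring 1 was higher and 15 were lower, beside 33.6% lower over all. Besides Cyp2c55 and Cyp3a13, Cyp2c50 read 9370.1 and 11978, against 17978, 15981 and 16306, a gap of 1.33-fold downward. Cyp2c39, a neighbour of Cyp2c55, read 248 and 631, against 6.25, 157 and 19.5, a gap of 1.57-fold upward. Cyp2c55 and Cyp2c39 thus had opposite directions in one gene cluster. Near copies in the Cyp2c, Ugt2b, Akr1c and Nat8 families can share probes, and how far they do so was not tested.

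Over all detected genes 10.3% were higher and 14.0% lower (4.05% and 33.6% after centring). Among conjugating enzymes 2 of 15 detected genes were higher and 2 lower (1 and 6 after centring), with a median of -0.19 log2. The lower ones with the widest gaps were adjacent on the chromosome. Ugt2b38, a glucuronosyltransferase gene, read 185 and 210.1, against 408, 3468 and 1056. Sult1b1, a sulfotransferase gene, read 378 and 378, against 708, 1201 and 1202. The gaps were 1.94-fold and 1.87-fold, with C57BL/6J nearest for both. In the list of aldo-keto reductases and dehydrogenases 3 of 35 were higher and 6 lower (0 and 19 after centring), with a median of -0.07. Akr1c19, an aldo-keto reductase gene, read 1854 and 1321, against 3630.3, 8589 and 3543. Aldh1a7, an aldehyde dehydrogenase gene, read 8503 and 7982, against 12426, 21316 and 14345. NZW/LacJ was highest for Ugt2b38, Akr1c19 and Aldh1a7.

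Urea cycle and amino acid breakdown genes were followed as a list that does not hold Dhtkd1. Of 42 detected genes 0 were higher and 10 lower (23.8%), beside 10.3% and 14.0% of all detected genes, with a median difference of -0.24 log2. After centring 26 were lower (61.9%), beside 33.6% of all detected genes. Hal, the histidine ammonia-lyase gene, read 3311 and 3784, against 6116, 7169 and 7484, a gap of 1.62-fold. Kynu and Haao, of the kynurenine route of tryptophan breakdown, had gaps of 1.31-fold and 1.24-fold. Kynu read 1395 and 1138, against 1831, 2628 and 2491. Haao read 4651 and 4912, against 6089, 7496 and 7047. The other 7 lower genes had gaps of 1.15-fold or less, among them Cps1, the entry enzyme gene of the urea cycle, at 22527 and 22426, against 24003, 23586 and 27588. These small gaps are of the size of the shifts between arrays given above, in which the arrays of the pair stood higher and not lower. The list had 10 lower genes (23.8%) after quantile normalisation and 9 (21.4%) after loess correction, beside 20.1% and 16.2% of all detected genes.

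**Figure D5:**
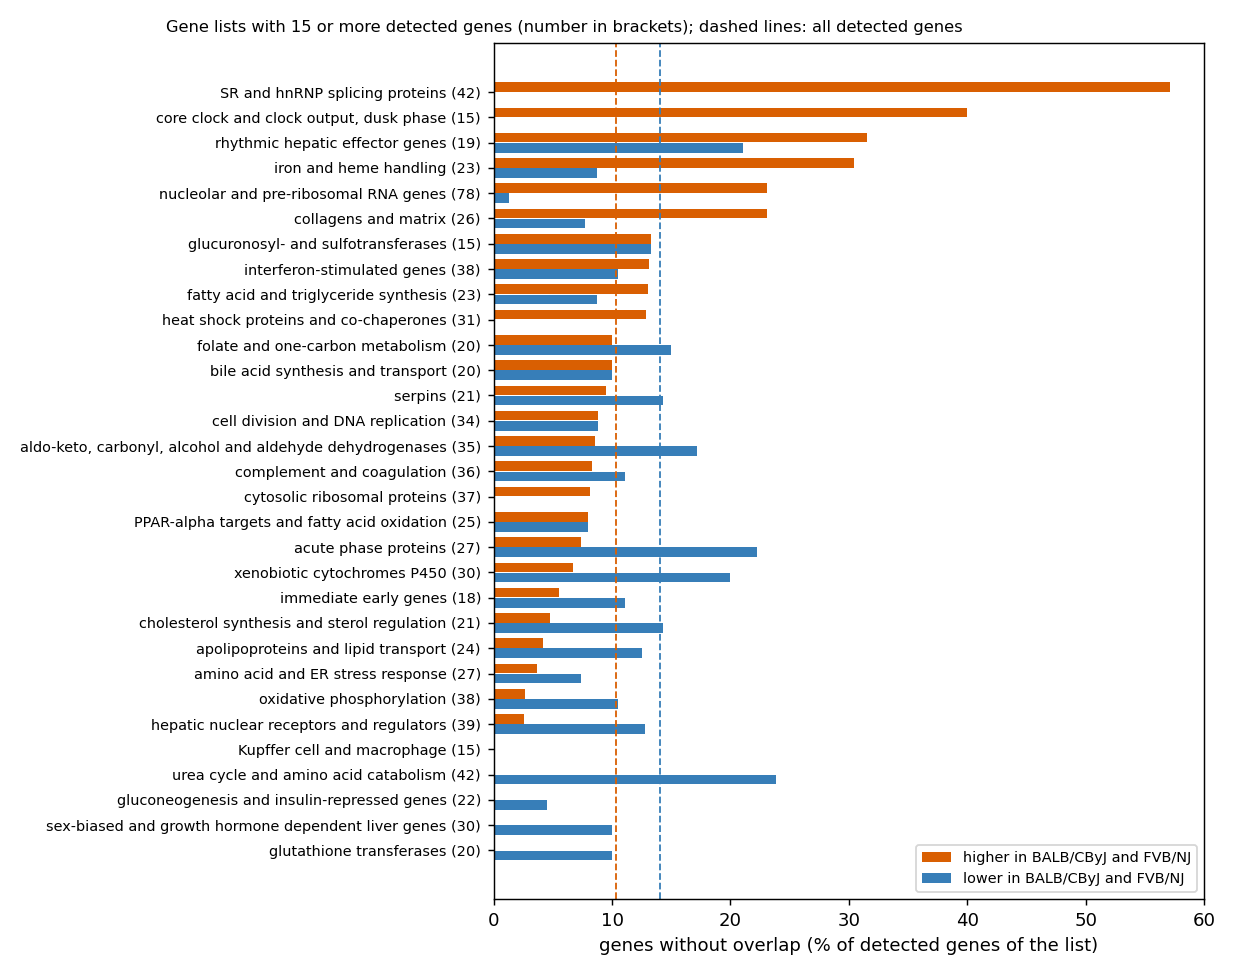
Share of detected genes without overlap, higher (orange) or lower (blue) in BALB/CByJ and FVB/NJ, for each list with 15 or more detected genes (number in brackets), as a percentage. Dashed lines mark all detected genes, 10.3% higher and 14.0% lower; splicing proteins reach 57.1% higher and amino acid catabolism 23.8% lower, before any rescaling of the arrays.

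Iron and heme genes were more often higher, with 7 of 23 detected and 2 lower, and a median of 0.23 log2 that was 0.03 after centring, with 3 higher and 6 lower, against a median of -0.14 over all detected genes. Apart from Alas1 the widest gaps were those of Cpox, another heme synthesis gene, and Slc40a1, the iron exporter gene, at 1.19-fold each. Slc40a1 read 5802 and 6598, against 4076, 4878 and 2528. Collagen and matrix genes had 6 higher and 2 lower of 26 (6 and 4 after centring), with a median of 0.28 log2. Their shares were 23.1% and 7.69% (23.1% and 15.4% after centring). Col1a2, a fibrillar collagen gene, read 275 and 265, against 187, 143 and 97.5, a gap of 1.42-fold. The summed markers of stellate cells and fibroblasts, a list that shares Col1a2, read 10193 and 11126, against 9354, 9512 and 7300.4. Of its 13 detected genes 2 were higher (15.4%) and 0 lower, beside 10.3% and 14.0% of all detected genes. After centring 2 were higher and 1 lower. The part of those cells in the collagen values was not tested.

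Counts of the other lists are given for the values as deposited and then after centring. Over all detected genes 10.3% were higher and 14.0% lower as deposited, then 4.05% and 33.6%. Fatty acid oxidation had 2 higher and 2 lower of 25, then 0 and 4, among them Cd36, the fatty acid uptake gene, at 148 and 248, against 1027, 397 and 467, a gap of 1.60-fold downward. With the probe sets of Cd36 averaged its gap was -0.15 log2. Without probe sets ending in _s_at, _x_at or _a_at the groups overlapped for Cd36. Cholesterol synthesis had 1 higher and 3 lower of 21, then 1 and 7. Oxidative phosphorylation had 1 and 4 of 38, then 1 and 25 (65.8% lower, beside 33.6% of all detected genes). Complement and coagulation had 3 and 4 of 36, then 1 and 20 (55.6% lower). Glutathione transferases had 0 and 2 of 20, then 0 and 6. The medians of these lists as deposited lay between -0.12 and -0.01 log2, beside 0.02 for all detected genes, so their lower counts depend on the scaling. Interferon-stimulated genes had 5 higher and 4 lower of 38, then 2 and 8, and Oasl1 was the 1 gene of that list with a gap past 2-fold. MHC class II genes had 0 members among 11 detected, although their median difference was 1.76 log2, because FVB/NJ alone was high. Major urinary protein and lipocalin genes had 0 higher and 4 lower of 7 in both cases, and in 2 of them the gap was under 1.10-fold. Mup5, one of these, read 32.8 and 259, against 282, 306 and 285.

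Further lower genes outside the lists, chosen after their values were seen, separated the same arrays. Psen2, a presenilin gene of the gamma-secretase complex, read 1910.2 and 2188, against 4137, 6066 and 7619.6, a gap of 1.89-fold. Nnmt, which encodes nicotinamide N-methyltransferase, read 424 and 273, against 2913, 712 and 5114, a gap of 1.68-fold. Ccl9, a chemokine gene, read 1004 and 1719.6, against 2819, 7364 and 3016, a gap of 1.64-fold. The nearest strain differed between these genes, being C57BL/6J for Psen2 and Ccl9 and NZW/LacJ for Nnmt. Galt, the galactose-1-phosphate uridylyltransferase gene, read 1236 and 1118, against 1919.9, 1934 and 1892, a gap of 1.53-fold. Both groups were tight for Galt, with spreads of 1.11-fold in the pair and 1.02-fold among the others. Phlda1, a pleckstrin homology domain gene, read 2074 and 693, against 3299.7, 5985 and 3483, a gap of 1.59-fold. Car14, a membrane-bound carbonic anhydrase gene, read 158 and 288, against 559, 825 and 605. Mmd2, of the progestin and adiponectin receptor family, read 18.4 and 31.8, against 55.2, 485 and 419, a gap of 1.74-fold. In Mmd2 the spread among the other strains, 8.79-fold, was far wider than the gap, with C57BL/6J near the pair.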

How the data were processed

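Liver RNA of 5 mouse strains was read on 1 Affymetrix Mouse430_2 array per strain. The deposited values are intensity on a linear scale. GCOS and GCRMA are the programs named, per the submitters' processing notes, and their versions are not given in the sources used here. Of 45101 probe sets, 34958 had 1 gene by the platform annotation, 932 several and 9211 none, and only the first kind was used. Exact ties between 2 or more arrays occurred in 29.1% of probe sets. Intensities were converted to log2, and the gap, floor and 2-fold limit were taken as defined above. No test was run. The members, gene lists and rule for named genes (per direction the 15 widest measured gaps and the 6 widest bounds, list genes, and the 3 genes on each side of the limit) were chosen with earlier results of these data known, and 4 lists (splicing, nucleolar, folate, rhythmic genes) and other named genes after values were seen. Alternatives were other floors, probe set rules, scalings, thresholds, a pseudocount of 16 and leaving out each array. The counting was tested on simulated data. Arrays carry no read depth, and their number limits the precision. Python 3.11.15, numpy 2.4.6, pandas 2.3.3 and statsmodels 0.14.6 were used.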

Additional observations from a re-analysis of the deposited data

How the results depend on the processing

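No gene changed direction under any alternative (0 of 653 gaps recomputed for the 38 genes and a part of the other named genes). Leaving out an array, changing or dropping the floor and adding a pseudocount cannot reverse a gap. Only averaging or restricting probe sets, the scalings and the next brightest probe set could have done so. The 24 genes higher by 2-fold became 13 with probe sets averaged per gene, 10 with log2(value + 16), 2 at a 4-fold limit and 112 at 0.5 log2. The 14 lower became 5 at 4-fold and 64 at 0.5 log2. With 1 array left out they ranged from 35 to 752 higher and from 21 to 91 lower. The 1250 genes higher with any gap and no floor became 2255 after quantile normalisation, 3108 after loess correction and 489 after centring, and 1604 to 3516 with 1 array left out. The 7299 lower became 1672 with the higher group above the floor, 4408 after quantile normalisation, 3703 after loess correction, and 7679 to 9882 with 1 array left out. Of the 38 genes, 28 kept a 2-fold gap with the floor at the 99th percentile (27.2), 24 with the mean of probe sets, 20 with log2(value + 16), 32 after quantile normalisation, 35 after loess correction and 31 after centring, and 2 of 16 with a next brightest detected probe set kept it on that set. Apart from the next brightest probe set, 12 of 38 kept it in every setting run on gaps of single genes with 5 arrays, namely A2ml1, Aqp8, Camk1d, Clec2h, Cyp2c55, Cyp3a13, Dct, Nrep, Serpina4-ps1, Snhg4, Xdh and Zfp157. With that setting too 9 of 38 kept it, without Camk1d, Serpina4-ps1 and Zfp157. The cause of these changes was not tested. No paired analysis was possible because there was 1 array for each strain. Signals near the floor limit what a gap can show.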
